A study of Mus musculus with 12 samples.

Results

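The transcripts of interferon beta, of the receptor chains for type I and type II interferon, of the JAK kinases bound to such receptors and of the kinase Pim1 were followed in macrophages given lipopolysaccharide (LPS), an outer membrane glycolipid of bacteria that macrophages sense. These 10 genes were taken by name and role from the 54232 genes counted, with earlier results of these data known. They are Ifnb1, Ifnar1, Ifnar2, Ifngr1, Ifngr2, Jak1, Jak2, Jak3, Tyk2 and Pim1, and all 10 were among the 12771 genes with enough counts to be tested.

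RNA came from RAW 264.7, a mouse macrophage line. Wild type cells, cells labelled as a knockout of Ing4 (Ing4-/-) and cells labelled as a knockout of Socs1 (Socs1-/-) were either untreated or treated with LPS at 100 ng/ml for 3 h, with 2 libraries in each of the 6 groups. No other allele or agent is named in the labels, and they do not say how many clones each knockout stands for, so the loss of the gene and other differences between the lines cannot be told apart. Whether replicate libraries were grown as separate cultures is not stated, so each p-value measures only the spread between these libraries.

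LPS binds TLR4 on the macrophage surface, and a branch of its signalling through TRIF, TBK1 and IRF3, together with NF-kB, switches on the gene for interferon beta. The secreted protein binds a receptor made of IFNAR1 and IFNAR2, which carry the kinases TYK2 and JAK1, and these phosphorylate STAT transcription factors. Interferon gamma uses a separate receptor, IFNGR1 with IFNGR2, which carries JAK1 and JAK2, and SOCS1 is an inhibitor of these kinases that the pathway itself induces.

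The sequence before the start of Ifnb1 is shown here because that gene changed most among the 10. The other 3 stretches come from Ifngr2, Pim1 and Tyk2, the other genes of the set with a match to the NF-kB letters. All are from RefSeq on GRCm38.p6 and run 5′ to 3′ along the gene, and capitals mark the matches.
Ifnb1: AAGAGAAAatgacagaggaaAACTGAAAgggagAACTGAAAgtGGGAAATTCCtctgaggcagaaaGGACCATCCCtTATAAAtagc
Ifngr2: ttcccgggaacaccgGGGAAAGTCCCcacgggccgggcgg
Pim1: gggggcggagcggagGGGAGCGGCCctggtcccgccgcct
Tyk2: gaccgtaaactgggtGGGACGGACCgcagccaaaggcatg

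The Ifnb1 stretch is chr4:88522867-88522953 on the minus strand and covers the bases from 159 to 73 upstream of the RefSeq start. It holds 3 matches to the letters AANNGAAA, bound by interferon regulatory factors (IRF), at 159, 139 and 126 bases upstream. They are followed by 2 matches to the NF-kB letters (GGGA, any 4 bases, CC), at 116 and, on the other strand, at 93 bases upstream, and by a TATAAA at 82 bases upstream. The Ifngr2 stretch is chr16:91546968-91547007 on the plus strand, the Pim1 stretch chr17:29490595-29490634 on the plus strand and the Tyk2 stretch chr9:21131281-21131320 on the minus strand. The run in Ifngr2 is 2 overlapping matches, 1 on each strand.

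Both strands of the 250 bases before each of 32851 RefSeq starts were searched. AANNGAAA was present before 21.3% of starts, the NF-kB letters before 17.6%, the STAT letters TTCNNNGAA before 7.02% and TATAAA before 12.4%. At least 2 IRF matches together with an NF-kB match were found before 135 starts (0.411%), and Ifnb1 was the only gene of the 10 among them. Ifnar2 had a TTCNNNGAA match, TTCCTGGAA, 214 bases upstream. The windows of Ifnar1, Ifngr1, Jak1, Jak2 and Jak3 held none of the 4 motifs. These are matches of letters and do not show that a factor was bound.

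Library totals ranged from 17250815 to 24377950 counts, and levels are given as CPM, the count per effective library size (the total times a TMM scaling factor). In a principal component analysis of all tested genes 5 LPS libraries lay at 62.4 to 74.4 on the first component and the untreated libraries at -66.1 to -41.7, but the first LPS-treated Socs1-/- library lay at -16.2. Its correlation with its replicate over genes was 0.9258, against 0.9705 to 0.9869 within the other groups. Calls of the 10 genes that change without it are given both ways. Without it the LPS-treated Socs1-/- group keeps a single library, so Socs1-/- calls then rest on that library and on the spread within other groups. Transcript levels do not check the knockout labels. Ing4 had 0.101 to 1.39 CPM over all libraries, with 0.262, 1.34, 0.285 and 0.554 CPM in those labelled Ing4-/-. After LPS, Socs1 was at 2.73 and 7.14 CPM in the libraries labelled Socs1-/- and at 9.08 and 9.08 CPM in wild type. Of 8 macrophage markers all were tested, whereas 0 of 6 T, B and NK cell markers and 0 of 4 fibroblast and epithelial markers had enough counts. The macrophage marker Mertk was low, at 0 to 7.1 CPM untreated and 0.281 to 1.22 CPM in the 5 other LPS libraries. It was at 0 CPM in the first LPS-treated Socs1-/- library, while the rest of the macrophage list had at least 17.6 CPM in every library. Of 4 dendritic cell markers 2 were tested: Zbtb46, at 0.323 to 4.33 CPM untreated and 0.665 to 3.88 CPM in the 5 other LPS libraries, and Xcr1, at 0.0498 to 0.323 CPM untreated and 1.24 to 2.20 CPM in those 5. In the first LPS-treated Socs1-/- library Xcr1 was at 0.285 CPM. Xcr1 was called higher after LPS in all 3 genotypes without that library (log2 change 2.99, 2.79 and 3.12), while Flt3 was at 0 in all 12. The part of Xcr1 in the results below was not tested.

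LPS raised Ifnb1 and Pim1 in all 3 genotypes, and Jak2 in Ing4-/- cells. A gene was called changed at an adjusted p below 0.05 in edgeR's quasi-likelihood test, with the Benjamini-Hochberg adjustment made over every tested gene. By this test 2 of the 10 genes changed in wild type cells, where 2.89% of all tested genes were called. In Ing4-/- cells 3 changed, beside 8.02% of all tested genes, and in Socs1-/- cells 2, beside 1.98%. The median log2 change of the 10 genes in wild type was 0.33, beside 0.008 for all tested genes. All 6 LPS libraries lay above all 6 untreated libraries for 4 of the 10, Ifnb1, Jak1, Jak2 and Pim1, a pattern that 7.70% of tested genes showed. None of the 10 had all 6 LPS libraries below, a pattern of 6.05% of tested genes.

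**Figure D1:**
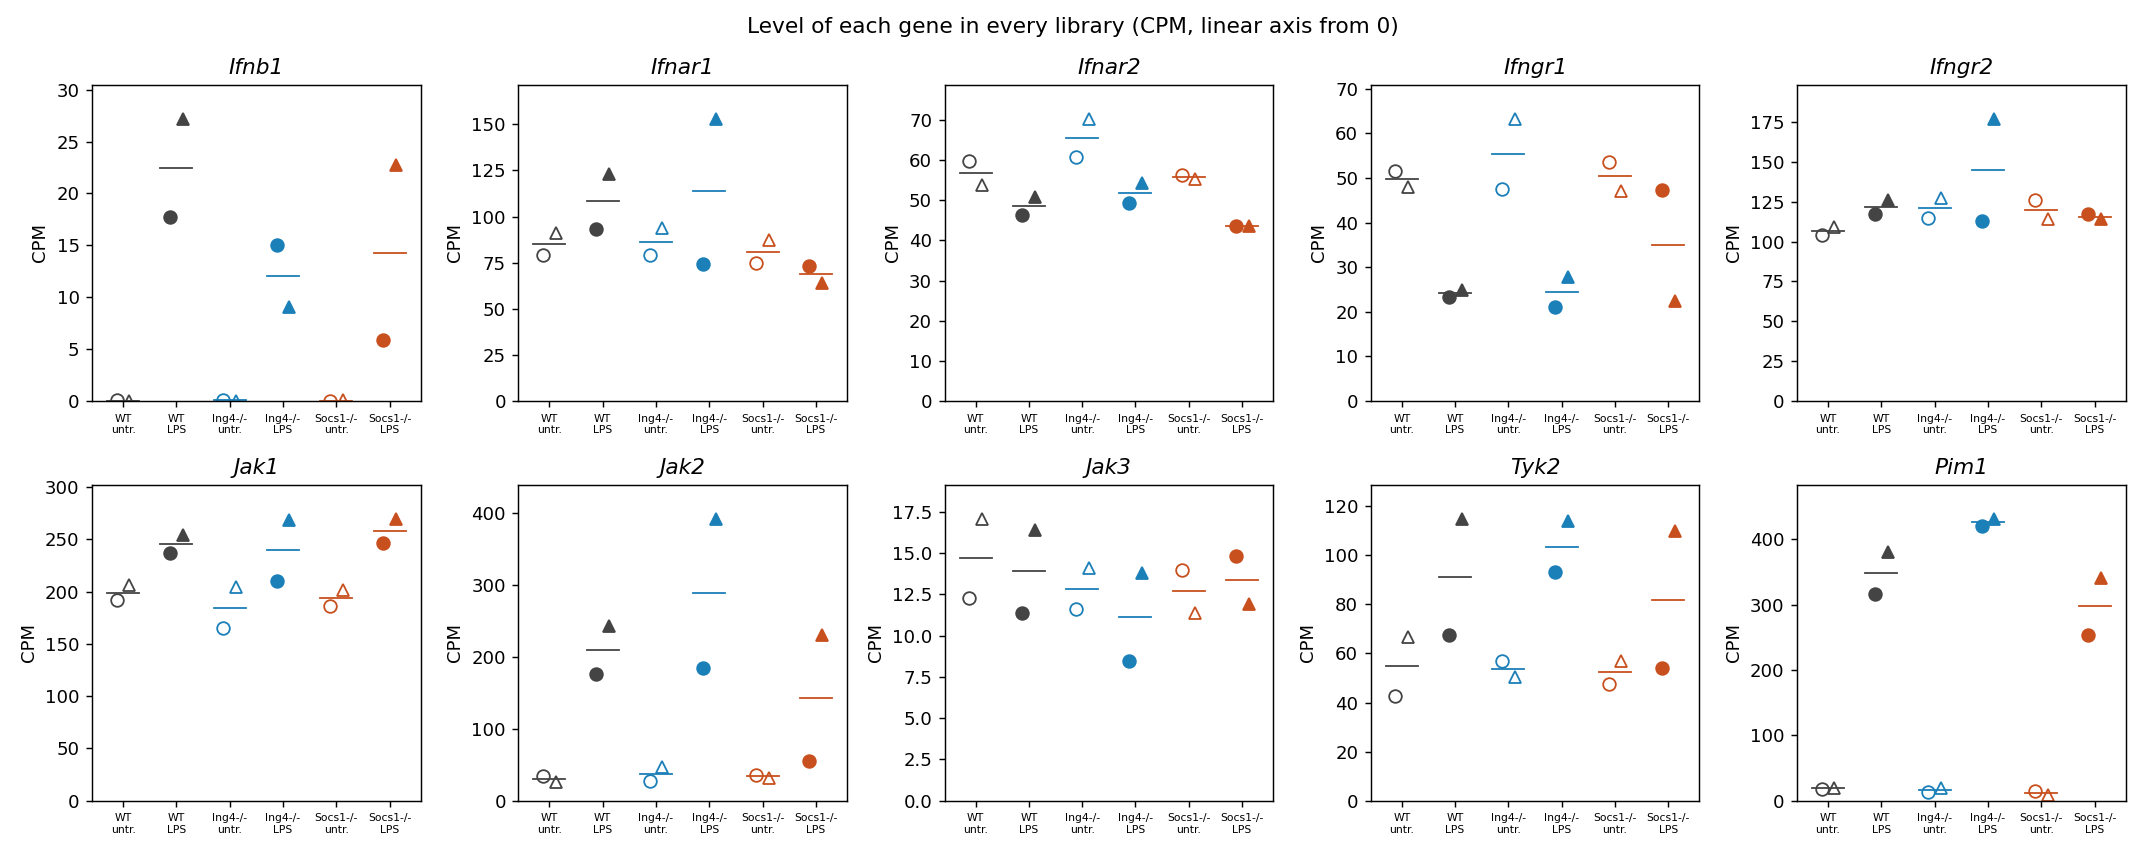
Level of each of the 10 genes in CPM (linear axis from 0) in the 6 groups, with a circle for replicate 1, a triangle for replicate 2 and a line at the group mean (n = 2). Ifnb1, Jak2 and Pim1 are higher in every LPS library than in any untreated library, and Jak3 overlaps throughout.

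Ifnb1 encodes the ligand. It lies on chromosome 4 from 88522025 to 88522774 on the minus strand of GRCm38, as 1 exon. In untreated cells it had 1 and 0 counts in wild type, 2 and 0 in Ing4-/- and 0 and 1 in Socs1-/-. The transcript was thus at or near the limit of detection in all 6 untreated libraries. After LPS it had 329 and 537 counts in wild type, 316 and 164 in Ing4-/- and 145 and 403 in Socs1-/-. These correspond to 17.7 and 27.2 CPM in wild type, 15 and 9.08 CPM in Ing4-/- and 5.91 and 22.7 CPM in Socs1-/-. The lowest LPS library was the first of Socs1-/-, and the wild type libraries both lay above both of Ing4-/-.

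Because the untreated groups held 1 or 2 counts, the ratio of summed counts per depth has a wide interval. In wild type it was 1010 (95% exact binomial interval 181 to 40100), in Ing4-/- 274 (75.4 to 2270) and in Socs1-/- 559 (99.9 to 22100). These intervals cover counting error only. In bulk RNA, more cells making the transcript and more transcript per cell cannot be told apart. The rise was called in each genotype by edgeR, with an adjusted p of 0.0047 in wild type, 0.0058 in Ing4-/- and 0.0061 in Socs1-/-. The fitted log2 changes of 9.64 (SE 1.15), 7.90 (SE 1.06) and 8.93 (SE 1.15) depend on the prior count and are not bounds.

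The call for Ifnb1 was lost when either untreated library of its genotype was left out. These fits also called fewer of all tested genes. With the first or second left out, the adjusted p in edgeR was 0.083 or 0.075 in wild type, 0.052 or 0.066 in Ing4-/- and 0.072 or 0.059 in Socs1-/-, although the direction stayed up. In Socs1-/- it also missed the threshold in limma-voom (adjusted p 0.07), which called 1.75% of all tested genes. Ifnb1 missed it too in an edgeR fit to the 2 Socs1-/- groups alone (adjusted p 0.37), which called 0% of all tested genes. Without the first LPS-treated Socs1-/- library its adjusted p there was 0.00021. No other interferon gene had a count. Of 20 further interferon genes (alpha, lambda, gamma and others) each had 0 counts in all 12 libraries, where 3 counts would be 0.122 to 0.169 CPM. Whether reads that match several of these genes were counted was not tested, so 0 counts do not show that a transcript was absent.

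The type I receptor chains changed little. Ifnar1, which binds TYK2, lies on chromosome 16 from 91485238 to 91507441 on the plus strand. It was at 79.2 and 91.0 CPM in untreated wild type cells and at 93.3 and 123 CPM after LPS. In Ing4-/- it was at 79.3 and 93.5 CPM untreated and at 74.5 and 153 CPM after LPS, and in Socs1-/- at 74.8 and 87.1 CPM untreated and 73.1 and 64.0 CPM after LPS. Both wild type libraries were higher after LPS, the Ing4-/- libraries after LPS lay on either side of the untreated ones, and both Socs1-/- libraries were lower. The log2 changes were 0.35 (95% interval -0.33 to 1.03), 0.40 (-0.28 to 1.08) and -0.24 (-0.92 to 0.44), and none passed the test.

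Ifnar2, the chain that binds JAK1, lies on chromosome 16 from 91372783 to 91405589 on the plus strand. It was at 59.7 and 53.9 CPM in untreated wild type and at 46.2 and 50.8 CPM after LPS. The Ing4-/- libraries had it at 60.7 and 70.3 CPM untreated and at 49.3 and 54.3 CPM after LPS, and in Socs1-/- at 56.3 and 55.2 CPM untreated and at 43.5 and 43.7 CPM after LPS. Within each genotype both LPS libraries lay below both untreated ones, although the log2 changes were only -0.23, -0.34 and -0.35. Their adjusted p in edgeR was 0.37, 0.15 and 0.25, so none was called.

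The type II receptor chains behaved unlike each other. Ifngr1, the ligand-binding chain, lies on chromosome 10 from 19591949 to 19610229 on the plus strand. It was at 51.5 and 48.0 CPM in untreated wild type and at 23.4 and 24.9 CPM after LPS. Ing4-/- cells had 47.5 and 63.3 CPM untreated and at 21 and 27.8 CPM after LPS, while Socs1-/- had 53.6 and 47.1 CPM untreated and 47.3 and 22.5 CPM after LPS. The first LPS-treated Socs1-/- library was inside the untreated range of 47.1 to 63.3 CPM, and the other 5 LPS libraries, at 21 to 27.8 CPM, lay below all untreated libraries.

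On the log2 scale Ifngr1 differed after LPS by -1.04 (SE 0.32) in wild type, -1.18 (SE 0.32) in Ing4-/- and -0.53 (SE 0.31) in Socs1-/-. With adjusted p of 0.11, 0.053 and 0.44 in edgeR it was not called. Leaving out the first LPS-treated Socs1-/- library, whose spread from its replicate enters the error of every comparison, gave -1.04, -1.18 and -1.16 with adjusted p of 0.0073, 0.003 and 0.013, so that Ifngr1 was then lower in all 3 genotypes. Leaving out the second instead gave -1.04 in wild type and -1.18 in Ing4-/-, but only -0.09 in Socs1-/-. The lower level in Socs1-/- thus depended on which of its LPS libraries was kept. With the replicate number as a block within genotype the adjusted p was 0.032 in wild type, 0.017 in Ing4-/- and 0.13 in Socs1-/-. In wild type DESeq2 also called Ifngr1 lower, with an adjusted p of 0.029.

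Ifngr2, the second chain, lies on chromosome 16 from 91547072 to 91565623 on the plus strand. It had 104 and 109 CPM in untreated wild type and 117 and 126 CPM after LPS. In Ing4-/- it had 115 and 127 CPM untreated and 113 and 177 CPM after LPS, and in Socs1-/- 126 and 114 CPM untreated and 117 and 114 CPM after LPS. The groups overlapped in both knockouts, and the log2 changes of 0.19, 0.26 and -0.06 did not pass the test. Ifnar2, Ifnar1 and Ifngr2 lie in this order within 192.8 kb of chromosome 16, with Il10rb, a receptor chain for interleukin 10, between the first pair. Il10rb ranged from 39.3 to 91.0 CPM untreated. The log2 changes of the 3 interferon receptor genes there all lay between -0.35 and 0.40.

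Among the kinases Jak2 differed most between untreated and LPS libraries. Jak2, which serves the interferon gamma receptor and many cytokine receptors, lies on chromosome 19 from 29251828 to 29313080 on the plus strand. It was at 34.6 and 25.9 CPM in untreated wild type and at 176 and 242 CPM after LPS. In Ing4-/- it was at 27.6 and 46.6 CPM untreated and at 185 and 392 CPM after LPS, and in Socs1-/- at 35.9 and 31.4 CPM untreated and at 55.4 and 230 CPM after LPS. All LPS libraries were above all untreated ones, but the first LPS-treated Socs1-/- library was far below the other 5.

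The log2 change of Jak2 was 2.79 (SE 0.65) in wild type, 2.96 (SE 0.65) in Ing4-/- and 2.08 (SE 0.63) in Socs1-/-, with adjusted p of 0.062, 0.035 and 0.16 in edgeR. Only the Ing4-/- value was called, and it was lost (adjusted p 0.058 to 0.18) when any 1 library other than the LPS-treated Socs1-/- ones was left out. Without the first LPS-treated Socs1-/- library the changes were 2.79, 2.96 and 2.78, and all 3 were called with adjusted p of 0.0028, 0.0017 and 0.0046. Without the second instead, the change was 2.79 in wild type but 0.72 in Socs1-/-. The size of the Socs1-/- change thus depended on which of its LPS libraries was kept. With the replicate number as a block within genotype the adjusted p was 0.038, 0.024 and 0.13. DESeq2 called Jak2 in wild type (adjusted p 5.7e-05) and in Socs1-/- (adjusted p 0.0071).

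Tyk2, the kinase on IFNAR1, lies on chromosome 9 from 21104068 to 21131243 on the minus strand. It was at 42.8 and 66.7 CPM in untreated wild type and at 67.7 and 115 CPM after LPS. The Ing4-/- libraries had it at 56.8 and 50.2 CPM untreated and at 93.1 and 114 CPM after LPS, and in Socs1-/- at 47.7 and 57.0 CPM untreated and at 53.9 and 110 CPM after LPS. All LPS libraries except the first of Socs1-/- were above every untreated library. The log2 changes were 0.74, 0.95 and 0.65, with adjusted p of 0.27, 0.14 and 0.42 in edgeR. In Ing4-/- the call appeared with either LPS-treated Socs1-/- library left out (adjusted p 0.044 both times) and with the block within genotype (adjusted p 0.026).

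Jak1, shared by the receptors of both interferon types, lies on chromosome 4 from 101152367 to 101265282 on the minus strand. It was at 192 and 206 CPM in untreated wild type and at 237 and 254 CPM after LPS. In the Ing4-/- line it was at 165 and 204 CPM untreated and at 210 and 269 CPM after LPS, and in Socs1-/- at 186 and 202 CPM untreated and at 247 and 270 CPM after LPS. No LPS library overlapped the untreated range, and the first LPS-treated Socs1-/- library was among the others. The differences were small, with log2 changes of 0.31, 0.38 and 0.42 and adjusted p of 0.33, 0.19 and 0.27 in edgeR. With the block within genotype the adjusted p was 0.062 in wild type, 0.029 in Ing4-/- and 0.047 in Socs1-/-.

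Jak3 serves receptors with the common gamma chain and is known mainly from lymphoid cells. It lies on chromosome 8 from 71676296 to 71690575 on the plus strand. It ranged from 11.4 to 17.1 CPM in the 6 untreated libraries (median 13.1) and from 8.46 to 16.4 CPM in the 6 LPS libraries (median 12.9). The log2 changes of -0.07, -0.20 and 0.08 did not pass the test, and their signs changed when single libraries were left out. Jak3 shares 7.55% of its exon bases with Insl3 on the same strand, which had at most 3 counts in any library.

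Pim1, a serine/threonine kinase induced by JAK-STAT signals, lies on chromosome 17 from 29490753 to 29496112 on the plus strand. It was at 18.4 and 19.6 CPM in untreated wild type and at 317 and 380 CPM after LPS. The Ing4-/- libraries were at 13.8 and 20.1 CPM untreated and at 421 and 432 CPM after LPS, and in Socs1-/- at 15.5 and 8.01 CPM untreated and at 254 and 341 CPM after LPS. Every LPS library was far above every untreated library, including the first of Socs1-/-. LPS raised Pim1 18.4-fold in wild type, 25.2-fold in Ing4-/- and 25.3-fold in Socs1-/-, as log2 changes of 4.20 (SE 0.34), 4.65 (SE 0.35) and 4.66 (SE 0.35). The adjusted p in edgeR was 0.00082, 0.00036 and 0.00056, and between 6.9e-05 and 0.022 whichever library was left out. In a fit to the 2 Socs1-/- groups alone it was 0.23, and that fit called 0% of all tested genes. Part of Pim1 (14.5% of its exon bases) lies opposite the antisense gene Gm26885, which had at most 11 counts.

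**Figure D2:**
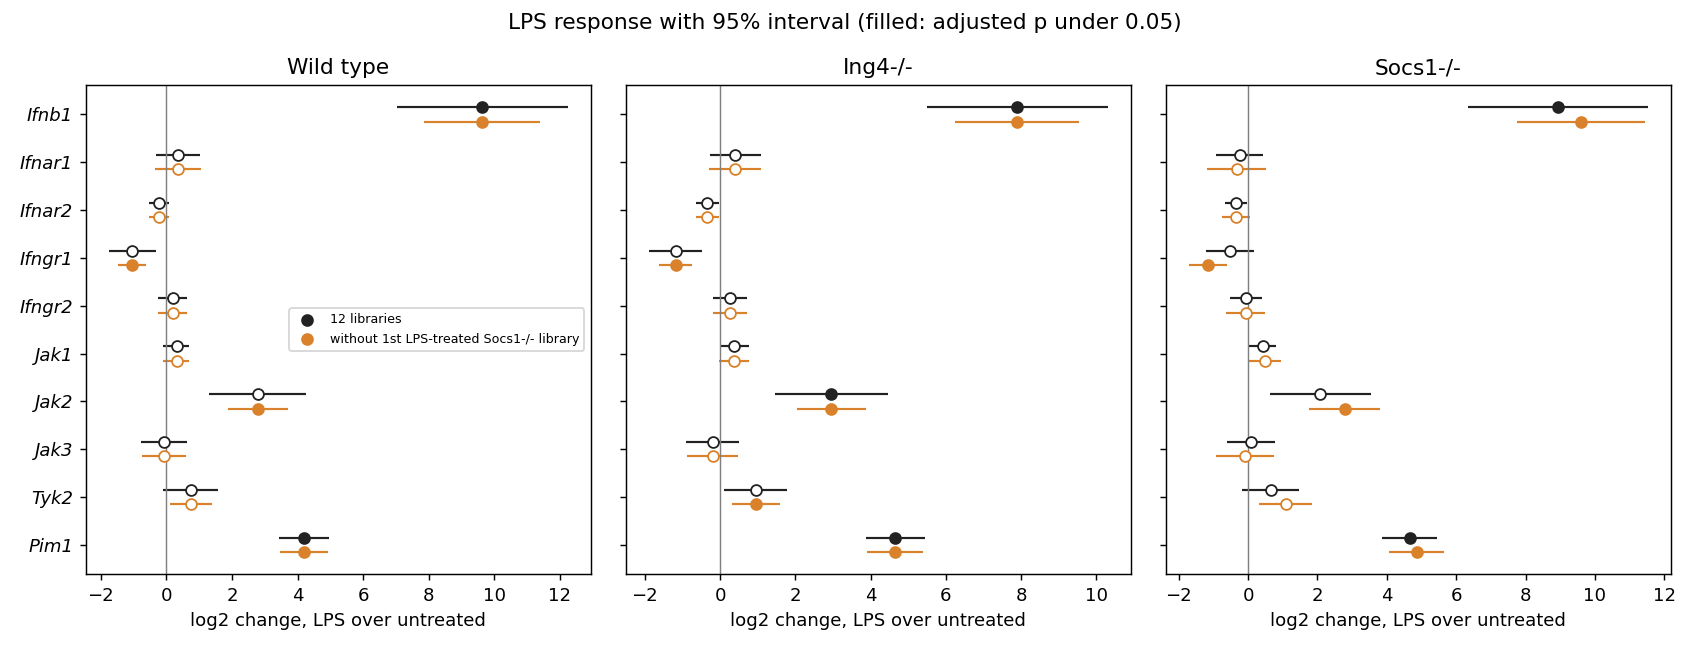
Log2 change of each gene from untreated to LPS in the 3 genotypes, with 95% intervals from edgeR, for all 12 libraries (black) and without the first LPS-treated Socs1-/- library (orange); filled points are called. Ifnb1 and Pim1 are called in every panel both ways, while Jak2 and Ifngr1 are called in all 3 panels only in orange, apart from Jak2 in Ing4-/-.

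Without the first LPS-treated Socs1-/- library 4 of the 10 genes were called in wild type, 5 in Ing4-/- and 4 in Socs1-/-. Over all tested genes 14.5%, 20.4% and 15.8% were then called, so the count of calls grew across the transcriptome as well. With the replicate number as a block within genotype 4, 6 and 3 of the 10 were called, beside 14.2%, 27.2% and 6.02% of all tested genes. With that library set aside, 5 of the 10 genes had the remaining LPS libraries all above the untreated ones (14.6% of tested genes). For 1, Ifngr1, they were all below (13.5% of tested genes). The Socs1-/- calls made without that library rest on a single LPS library.

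The library labelled as the first LPS-treated Socs1-/- sample did not stand apart evenly over the 10 genes. Ifngr1, Ifngr2, Jak3 and Tyk2 were inside the range of the untreated libraries. Jak1 and Ifnar1 were inside the range of the other LPS libraries, as were Ifngr2 and Jak3, whose ranges overlap. Ifnb1 at 5.91 CPM and Pim1 at 254 CPM were below the other LPS libraries but far above the untreated ones, and Jak2 at 55.4 CPM lay between the untreated maximum of 46.6 and the next LPS library at 176. Ifnar2, at 43.5 CPM, was the lowest of all 12.

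In the same library several genes that act after interferon were at or below untreated levels. Stat2 was at 11.7 CPM, against 147 to 337 CPM in the other LPS libraries and 21.6 to 33.0 CPM untreated. Irf9, its partner in binding DNA, was at 16.1 CPM, against 121 to 141 CPM in the other LPS libraries and 19.4 to 46.0 CPM untreated. The 12 interferon response readouts, genes used as a measure of interferon signalling, summed to 704 CPM there, to 8650 CPM in its replicate and to 22.1 to 138 CPM in untreated libraries. Cxcl10 made up 478 CPM of that sum, beside 1.29 to 5.29 CPM untreated, so this chemokine gene was above untreated levels in that library. So were 4 more of the 12: Oasl1 (155 CPM), Isg15 (31.4 CPM), Ifit1 (13.6 CPM) and Rsad2 (13.2 CPM), all below the other LPS libraries. Jun, a subunit of the transcription factor AP-1, was at 206 CPM there, beside 20.8 to 53.8 CPM untreated and 4.59 to 24.1 CPM in the other LPS libraries. Usp18, an inhibitor induced by interferon, was at 3.55 CPM, beside 3.64 to 39.3 CPM untreated and 344 to 842 CPM in the other LPS libraries. The cause was not tested.

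**Figure D3:**
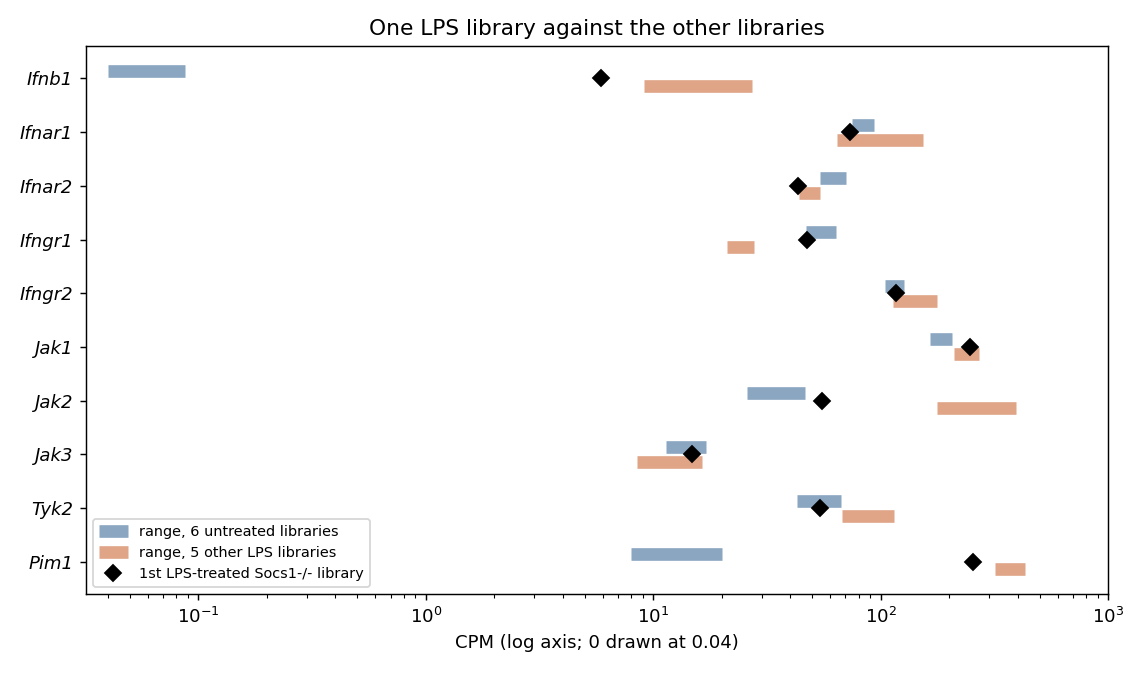
CPM (log axis) of each gene in the first LPS-treated Socs1-/- library (diamond) beside the range of the 6 untreated libraries (blue) and of the 5 other LPS libraries (orange). Ifngr1 and Tyk2 sit in the untreated range, Jak2 sits just above it, and Ifnb1 and Pim1 sit near the other LPS libraries.

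Neither knockout changed any of the 10 genes by the test. In the comparisons with wild type, 0 of 10 were called for untreated Ing4-/- (0.141% of tested genes called), LPS-treated Ing4-/- (0.102%), untreated Socs1-/- (0.0470%) and LPS-treated Socs1-/- (0.0626%). In edgeR 0 of the 10 reached an unadjusted p of 0.05 in any of these 4, and DESeq2 and limma-voom also called 0. Tests of whether the LPS response itself differed between a knockout and wild type gave 0 calls in the 10 genes with all 3 tools, and edgeR called 0% of all tested genes and 0 of the 10 at an unadjusted p of 0.05.

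The intervals show how much could have been missed. After LPS, Ifnb1 in Ing4-/- differed from wild type by -0.90 on the log2 scale (95% interval -2.37 to 0.58), and in Socs1-/- by -0.66 (-2.13 to 0.81). Without the first LPS-treated Socs1-/- library the latter was 0.01. No difference in the Ifnb1 response is given, since it would rest on 0 to 2 untreated counts. Jak2 after LPS differed by 0.46 (-0.92 to 1.85) in Ing4-/- and by -0.55 (-1.94 to 0.83) in Socs1-/-.

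Ifnar1 had the smallest p among the 10 genes in LPS-treated Socs1-/- cells. Both Socs1-/- libraries, at 73.1 and 64.0 CPM, were below both wild type libraries, at 93.3 and 123 CPM. The log2 difference was -0.66 (SE 0.30), with an unadjusted p of 0.056 and an adjusted p of 0.48 in edgeR. The LPS response differed from that of wild type by -0.59 (95% interval -1.55 to 0.37), with an unadjusted p of 0.2 in edgeR. It was lower in both libraries but did not pass the test.

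Ifngr1 after LPS was higher in Socs1-/- than in wild type by 0.53 on the log2 scale, with an adjusted p of 0.58 in edgeR. This value rested on the first LPS-treated Socs1-/- library: without it the difference was -0.10, and without its replicate it was 0.97 with an adjusted p of 0.031, the only call for any of the 10 in the knockout comparisons as run. In that last fit 9.00% of all tested genes were called. The LPS response of Ifngr1 differed from wild type by 0.51 (-0.48 to 1.51), and by -0.12 without the first library. Jak2 showed the same dependence, with a response difference of -0.71 (-2.67 to 1.26) that became -0.01. In untreated cells the smallest p was that of Pim1 in Socs1-/-, at 15.5 and 8.01 CPM beside 18.4 and 19.6 CPM in wild type. That log2 difference was -0.69 (SE 0.31, unadjusted p 0.052, adjusted p 0.98 in edgeR), and both libraries were lower. The unadjusted p became 0.044, and the adjusted p 0.65, without the first LPS-treated Socs1-/- library.

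Levels of different genes were compared as CPM per kilobase of exon. In untreated wild type cells Ifngr2 led with 28.2 ± 0.92 (SD, n = 2), followed by Jak1 with 27.6 ± 1.34, and these overlapped. Ifngr1 (17.5 ± 0.85) and Ifnar2 (17 ± 1.2) came next and also overlapped, and Ifnar1 was below them at 14.3 ± 1.41. Tyk2 (7.98 ± 2.47), Jak2 (6.02 ± 1.22) and Pim1 (5.65 ± 0.26) followed, each overlapping its neighbour. Jak3 stood at 2.75 ± 0.64 and Ifnb1, from a single count, at 0.0293.

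After LPS the order in wild type cells was led by Pim1 at 104 ± 13.2 CPM per kilobase. Next came Jak2 at 41.5 ± 9.26, Jak1 at 34.0 ± 1.63, Ifngr2 at 32.2 ± 1.63 and Ifnb1 at 29.9 ± 8.98. Each of these overlapped the next except Ifnb1, whose libraries both lay above those of Ifnar1. In wild type Ifnb1 thus went from the last of the 10 to a level that overlapped Ifngr2. In LPS-treated Ing4-/- cells it was the sixth, at 16.1 ± 5.59 beside 38.5 ± 12 for Ifngr2, and in Socs1-/- the fifth, at 19.1 ± 15.9 beside 30.7 ± 0.57. In wild type Ifnb1 was followed by Ifnar1 (18.2 ± 3.54), Ifnar2 (14.6 ± 0.99) and Tyk2 (13.3 ± 4.91), with the last pair overlapping. Also in wild type, Ifngr1 at 8.48 ± 0.38 was the ninth, down from the third, and Jak3 remained low at 2.59 ± 0.66. In untreated knockout cells Ifngr2 and Jak1 were again the highest, and Jak3 and Ifnb1 the lowest.

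**Figure D4:**
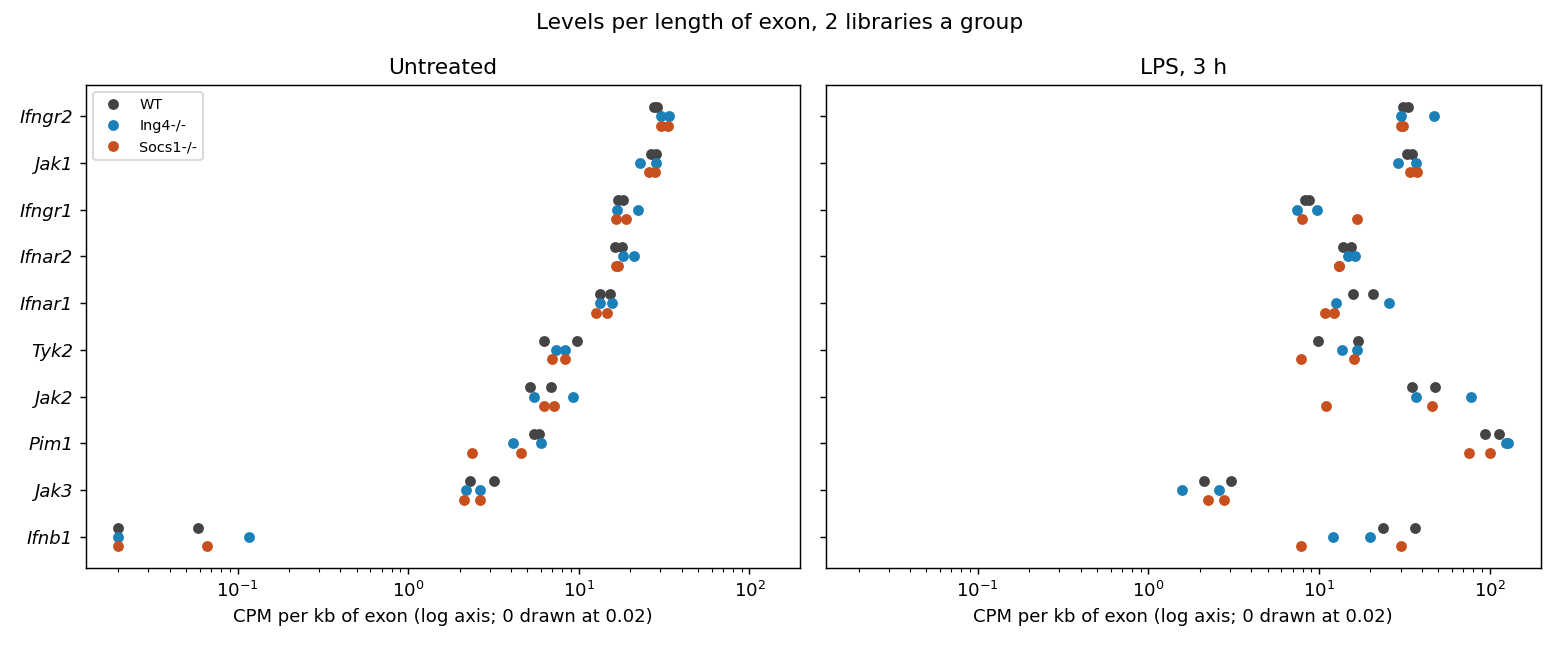
CPM per kilobase of exon (log axis, 0 drawn at 0.02) of the 10 genes in untreated (left) and LPS-treated cells (right), with each point 1 library and the genotypes offset by colour. From left to right Ifnb1, Pim1 and Jak2 move up, to 29.9, 104 and 41.5 in wild type, and Ifngr1 moves down, to 8.48.

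The rest of the pathway was read from lists of genes by role. Of 15 genes that lead from TLR4 to Ifnb1, 2 rose and 0 fell in wild type cells, where 1.89% of tested genes were called higher and 1.00% lower. These were Nfkb1, which encodes an NF-kB subunit (log2 change 2.64, adjusted p 0.032 in edgeR), and Tank, a scaffold for the kinase TBK1 (0.83, adjusted p 0.043). Without the first LPS-treated Socs1-/- library 7 of the 15 rose in wild type, among them Ikbke, a TBK1-related kinase (3.12), and Irf7 (2.98), named here after their values were seen. In Ing4-/- 5 rose and 1 fell, beside 4.73% of tested genes called higher and 3.29% lower, and in Socs1-/- 3 rose and 1 fell, beside 1.57% and 0.407%. Without that library 7 rose and 2 fell in Ing4-/-, and 7 rose and 1 fell in Socs1-/-. The shares of all tested genes called higher and lower were then 7.79% and 6.69% in wild type, 11.2% and 9.25% in Ing4-/- and 9.03% and 6.73% in Socs1-/-. The gene that fell in both knockouts was Tlr4, the LPS receptor itself (-2.39 and -2.01). In wild type Tlr4 was at 74.8 and 88.8 CPM untreated and at 36.4 and 51.6 CPM after LPS, lower as well but not called.

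Of 18 tested inhibitors of JAK-STAT signalling, 4 rose and 0 fell in wild type, where 1.89% of tested genes were called higher and 1.00% lower. Cish (log2 change 9.80), Socs3 (6.39) and Socs1 (4.73) belong to the SOCS family of cytokine-induced inhibitors, as does Socs7 (0.94). Cish had 0 to 0.0867 CPM in untreated cells, so the size of its fitted change depends on the prior count. In Ing4-/- cells 4 rose and 2 fell, beside 4.73% of tested genes called higher and 3.29% lower. In Socs1-/- cells 4 rose and 0 fell, beside 1.57% and 0.407%. With the first LPS-treated Socs1-/- library set aside, 6 rose and 1 fell in wild type, 8 rose and 2 fell in Ing4-/- and 7 rose and 1 fell in Socs1-/-. The shares of all tested genes called without that library, given above, were higher too. Socs1 transcript rose by 3.89 in the cells labelled Socs1-/- as well (adjusted p 0.0099 in edgeR).

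The counts of the next lists stand beside 2.89%, 8.02% and 1.98% of all tested genes called in wild type, Ing4-/- and Socs1-/-. Without the first LPS-treated Socs1-/- library these shares rose across the transcriptome, as given above. Of 7 tested genes for STATs and IRF9, which carry the signal from the receptors to the nucleus, 0 were called in wild type by edgeR. There 3 of the 7 had an unadjusted p below 0.05 in edgeR, among them Stat2 (log2 change 3.02, p 0.022) and Stat5a (1.80, p 0.032). Without the first LPS-treated Socs1-/- library 4 rose, among them Stat2 (3.02) and Irf9 (1.47), and 5 rose in each knockout, where 0 were called with all libraries. Of the 12 interferon response readouts 3 rose in wild type with all libraries, Cxcl10 (9.30), Isg15 (6.63) and Oasl1 (5.42), and 11 without that library. In Ing4-/- 5 rose and in Socs1-/- 3, and 12 in each without it. Of 11 other receptors coupled to JAKs, 0 rose and 1 fell in wild type, Il6st, the shared chain of the interleukin 6 family (-1.19). Without that library 2 rose and 2 fell in wild type, and 3 rose and 2 fell in each knockout, where 1 and 0 rose and 0 fell with all libraries. The other PIM kinases, Pim2 (0.92) and Pim3 (0.85), were not called in wild type, whereas Pim3 rose in Ing4-/- (1.18, adjusted p 0.044 in edgeR). Without that library both were called in Ing4-/- (1.37 and 1.18) and in Socs1-/- (2.11 and 1.18). In edgeR none of the genes in these pathway lists was called in a comparison of a knockout with wild type or in a difference of LPS responses, with all libraries or without that one.

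The genes whose log2 CPM followed each of the 10 most closely over the 12 libraries were found by Pearson's r, which here mostly reflects the LPS and untreated clusters. For Ifnb1 they were Cxcl10 (r = 0.992), Tnf (0.992) and Csf3 (0.991), and for Pim1 Ehd1 (0.995), Sdc4 (0.991) and Gadd45b (0.990). For Jak2 they were Uba6, Micu3 and Heatr9 (0.987 to 0.986), and for Ifngr1 Kdelc2, Pask and Cdk19 (0.990 to 0.985). Tyk2 followed Mvp (0.974), and Jak1 followed Scyl2 (0.950). The best match of the remaining 4 had r of 0.930 for Ifnar2 (Zfp786), 0.939 for Jak3 (Unc13a), 0.922 for Ifngr2 (Gna13) and 0.913 for Ifnar1 (Sept9). These values are descriptions over libraries that share their treatment.

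The authors' deposited table of genes changed by LPS in wild type cells lists 867 genes, 3 of them from the set. In the authors' deposited table Ifnb1 has a log2 change of 5.38 (adjusted p 6e-22), Jak2 2.23 (adjusted p 6.2e-05) and Pim1 3.89 (adjusted p 3.3e-35). The authors' deposited tables for the 4 comparisons of a knockout with wild type list 0 of the 10. From the pathway lists the authors' deposited tables hold Tlr4, with a log2 change of -1.39 (adjusted p 0.01) in LPS-treated Socs1-/- against wild type, and Csf3r, a cytokine receptor gene, with 1.56 (adjusted p 0.014) in untreated Socs1-/-. From the marker lists the authors' deposited table for untreated Ing4-/- holds Zbtb46, with -1.76 (adjusted p 0.027).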

How the data were processed

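Poly(A) RNA was sequenced as single reads of 75 bases from a stranded kit, per the labels. The authors deposited whole-number read counts per Ensembl gene. The submitters' processing notes name FastQC, HISAT, StringTie, HTSeq and DESeq2 and the build GRCh38, but 1278 of 1345 deposited gene positions (95%) equal mouse GRCm38 (GENCODE M21), used here. The treatment text names HEK293T, the sample labels RAW 264.7. The authors' deposited tables hold log2 changes and adjusted p-values whose settings no source used here gives. Their 60 per-sample columns of normalized values were not used.

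Counts were tested in R 4.3.3 with edgeR 4.0.16 (filterByExpr, TMM scaling, robust quasi-likelihood, 1 model of 6 group means). The biological coefficient of variation was 0.289. All adjusted p are edgeR's unless another tool is named. The script was tested on simulated counts.

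The members, lists and alternatives were chosen with earlier results of these data known. All 10 members are named, then up to 4 called genes a list in wild type by smallest p, every list member called in a knockout comparison, and the 3 genes most alike (log2 CPM, prior count 2). Other list genes were named after their values were seen. A list gene is not reported here by name, and counts include it. Likewise, knockout values were given for members with the smallest p or a large spread.

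Same-numbered untreated and LPS libraries deviated together within each genotype (r = 0.447, 0.601 and 0.565), so the blocked values stand beside results they change. Between genotypes r was -0.129 to 0.156.

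Alternatives were DESeq2 1.42.0, limma-voom (limma 3.58.1), RLE or upper-quartile scaling, no filter, a mean of at least 5 CPM, only the groups compared, both blocks and leaving out each library.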

Additional observations from a re-analysis of the deposited data

How the results depend on the processing

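The 21 alternatives left the direction of all 7 called changes as it was. Beside the 2 genes called in wild type, 4 were called by DESeq2 (11.1% of all genes), 5 with no filter (8.69%), 4 with the replicate block within genotype (14.2%), 4 in a fit to the compared groups only (18.2%) and 1 to 4 without single libraries (0.211% to 14.5%). Beside the 3 in Ing4-/-, 5 were called with no filter (10.8%), 6 with that block (27.2%), 5 with the compared groups only (15.2%) and 1 to 5 without single libraries (0.580% to 20.4%). Beside the 2 in Socs1-/-, limma-voom called 1 (1.75%), the compared groups only 0 (0%), and fits without single libraries 1 to 4 (0.370% to 15.8%). For LPS-treated Socs1-/- against wild type the count was 0 to 1 without single libraries, and it was 0 in the other knockout comparisons under each alternative run there. In the LPS comparisons DESeq2 also called 4 of the 10 in Ing4-/- (17.1% of all genes) and 3 in Socs1-/- (6.59%). In Socs1-/- the block within genotype called 3 (6.02%), and with no filter Jak2 was called too (6.11%). The block within genotype was not run between genotypes, and the fit to the compared groups only tested 9 of the 10 genes in untreated cells. A block on replicate number across genotypes called 3, 3 and 2 in the LPS comparisons (3.48%, 9.79% and 2.04% of all genes). It called 0 elsewhere (0% to 0.188% of all genes), and the numbers do not pair genotypes.

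Of 90 changes (10 genes in 9 comparisons) 46 changed sign under at least 1 alternative, none of them called. Among the printed ones, the change of Jak3 after LPS was -0.36 to 0.17 in wild type, -0.60 to 0.11 in Ing4-/- and -0.09 to 0.23 in Socs1-/- without single libraries, and -0.06 in Socs1-/- with upper-quartile scaling. In the same way Ifnar1 in Ing4-/- was -0.21 to 0.83, Ifngr2 -0.10 to 0.55 in Ing4-/- and -0.13 to 0.02 in Socs1-/-. Against wild type after LPS, Jak2 was -0.18 to 0.91 in Ing4-/- and -1.92 to 0.14 in Socs1-/-, Ifnb1 -1.93 to 0.01 and Ifngr1 -0.10 to 0.97 in Socs1-/-, and the response of Ifngr1 differed by -0.12 to 0.95. Upper-quartile scaling moved the median of all genes by -0.114, -0.128 and -0.136 in the 3 LPS comparisons. Where a group is left with 1 library, it is assumed to vary like the others. The causes were not tested. With 2 libraries a group and 1 or 2 untreated counts, the size of the Ifnb1 change is poorly bounded.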
